A study of Mus musculus with 8 samples.

Results

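The genes described here are 7 genes of myosin light chains (Myl1, Myl2, Myl3, Myl4, Myl6, Myl6b and Mylpf) and 2 genes of light chain kinases (Mylk2 and Mylk4). They were picked by symbol, all 9 were found among the 22880 gene identifiers of the count files, and all 9 were among the 14001 genes that passed a filter on low counts and were tested. RNA had been sequenced from the soleus (a calf muscle rich in slow fibres) of 4 control mice (Dnm2 +/+) and 4 Dnm2 wt/K562E mice (labelled Dnm2 +/K562E). All were males of 2 months on a C57BL/6 background, and the mutants carried a lysine-to-glutamate change in 1 allele of the dynamin 2 gene. Each library was 1 mouse, and the counts were compared to ask how this allele affected muscle RNA.

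A muscle myosin is a pair of heavy chains whose neck regions each hold an essential and a regulatory light chain. The essential chain, also called alkali light chain, stiffens the neck, and the regulatory chain can be phosphorylated by a kinase that calcium signals switch on. Fast fibres use Myl1 (essential) and Mylpf (regulatory), slow fibres and the heart ventricle use Myl3 (essential) and Myl2 (regulatory), and Myl6b is a further essential chain of slow fibres. Myl4 is the essential chain of embryonic muscle and of the heart atrium, and Myl6 is the essential chain of smooth muscle and of non-muscle cells. Mylk2 is the skeletal muscle light chain kinase, and Mylk4 is a less studied member of the same kinase family.

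The light chain genes of the mutant soleus were not shifted together. Myl4 rose 28.7-fold and Myl6b 2.64-fold, Myl3 fell to a ratio of 0.230 and Myl2 to 0.643 of the control level, and Myl1, Mylpf and Myl6 did not pass the thresholds. Of the kinases, Mylk4 fell to 0.176 of the control level, whereas Mylk2 did not pass. By role, 3 of the 5 essential chains, 1 of the 2 regulatory chains and 1 of the 2 kinases were called.

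Calls needed both an adjusted p below 0.05, from the quasi-likelihood test of edgeR with Benjamini-Hochberg correction over the 14001 tested genes, and an absolute log2 fold change of 0.58 or more. With this rule 2 of the 9 genes were higher, against 12.9% of all tested genes, and 3 were lower, against 7.85%. Over all tested genes 1806 were higher and 1099 lower, and with libraries scaled by their total alone 2865 were higher and 564 lower. Called in either direction were 5 of 9 genes, against 20.7% of all tested genes. The median absolute log2 fold change was 0.64 over the 9 genes and 0.29 over all tested genes, and the signed medians were -0.20 and 0.01. In 5 of the 9 genes all mutants lay above all controls or all below them, which held for 41.2% of all tested genes. In whole muscle, fewer fibres of a type and less RNA in each fibre cannot be told apart.

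Depth was between 33407430 and 48832814 counts per mouse, and the TMM factors of edgeR, which set libraries to a common scale, were 0.915 to 0.959 in controls and 1.04 to 1.103 in mutants. Levels are CPM on that scale (normalized CPM), as mean ± SD over mice. The slow markers Tnnt1, Tnnc1, Atp2a2 and Myh7, the slow myosin heavy chain, were abundant in all 8 libraries, with Myh7 between 3694 and 6384 normalized CPM, and so did not go against the labelled tissue. Control 4 stood apart in genes of the fastest fibres. Its Myh4, the heavy chain of type IIB fibres, was at 3134 normalized CPM, against 163 to 426 in the other controls, and it was also the highest library for the fast genes Actn3, Pvalb and Mybpc2. Some fold changes and counts that moved without this mouse are given both ways where they are discussed. Values given once could move too, as did the log2 fold change of the IIX heavy chain Myh1 (-0.13, or -0.21 without control 4).

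The share of Dnm2 alleles does not show in gene counts, and total Dnm2 was 66.3 ± 4.74 normalized CPM in controls and 73.4 ± 2.43 in mutants (SD, n = 4 each; log2 fold change 0.15, adjusted p = 0.0909, edgeR quasi-likelihood test), which did not pass the threshold.

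Sequences before a RefSeq start (GRCm38.p6) were available for 8 of the 9 genes, all except Mylk2. Those of 3 genes are shown, because they stand for a light chain gene that fell, one that rose and one that passed no threshold, and because these bases hold no annotated exon. Each is the 215 bases that end 35 bases before the RefSeq start, written 5′ to 3′ on the strand of the gene. The windows are chr9:110763428-110763642 on the plus strand for Myl3, chr10:128498721-128498935 on the minus strand for Myl6b and chr7:127211358-127211572 on the plus strand for Mylpf. The Myl3 and Mylpf windows lie inside the gene spans given below, which begin further upstream than the RefSeq start. Only the Myl6b window lies outside the span of its gene. Capitals mark matches, on either strand, to the E-box CANNTG, the M-CAT element CATTCCT, the CArG box or the MEF2 site.
Myl3: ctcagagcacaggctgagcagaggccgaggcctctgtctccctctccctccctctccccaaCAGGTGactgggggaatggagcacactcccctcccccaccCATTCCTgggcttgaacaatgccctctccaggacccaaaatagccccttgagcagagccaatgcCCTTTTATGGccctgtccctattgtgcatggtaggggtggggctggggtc
Myl6b: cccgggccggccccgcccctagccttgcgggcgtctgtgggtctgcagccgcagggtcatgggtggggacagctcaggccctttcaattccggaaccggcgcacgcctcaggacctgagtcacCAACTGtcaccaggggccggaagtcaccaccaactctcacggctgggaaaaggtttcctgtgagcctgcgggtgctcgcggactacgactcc
Mylpf: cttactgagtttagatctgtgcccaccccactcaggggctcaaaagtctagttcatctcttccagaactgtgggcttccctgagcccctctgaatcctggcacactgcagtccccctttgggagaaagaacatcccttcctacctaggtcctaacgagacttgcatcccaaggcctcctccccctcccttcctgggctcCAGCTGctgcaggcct
The Myl3 window held an E-box (CAGGTG) that begins 189 bases before the start, an M-CAT element (CATTCCT) at 149 bases and a CArG box (CCTTTTATGG) at 85 bases. The Myl6b window held 1 E-box (CAACTG, at 127 bases) and the Mylpf window 1 E-box (CAGCTG, at 51 bases), with no match to the other 3 motifs. No match overlapped another. Among 32851 windows of the same length in the table, 61.4% held an E-box, 4% an M-CAT element, 2.56% a MEF2 site and 1.27% a CArG box. These matches describe letters in the window and not binding.

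Among the essential light chains, Myl4 (chromosome 11, 104550663 to 104595753, GRCm38) had the largest change. Controls 1 to 4 had 7.89, 8.26, 10.5 and 8.01 normalized CPM, and mutants 1 to 4 had 301.4, 226.6, 194.4 and 273.0. The lowest mutant was far above the highest control, and the spread within each genotype was small beside the gap between them. The raw counts behind these values were 265 to 469 in controls and 8152 to 11098 in mutants. The mean rose from 8.67 ± 1.23 to 248.9 ± 47.6 (SD, n = 4 each), a log2 difference of 4.84 ± 0.16 (SE; adjusted p = 9.34e-08, edgeR quasi-likelihood test). With its exon length of 4637 bases taken into account, Myl4 moved from rank 8785 to rank 606 among 13955 tested genes with a known length. Of the 31-base stretches in its transcripts, 0.623% also occur in another gene (Lin52), so few of its reads could be shared.

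Myl6b (chromosome 10, 128494157 to 128498685), which lies directly beside Myl6 on the same strand, was the other essential chain that rose. Its levels were 52.9, 45.3, 66.2 and 49.99 normalized CPM in controls 1 to 4 and 134.8, 149.1, 150.9 and 131.0 in mutants 1 to 4. The genotypes did not overlap, and the mutants varied less around their mean (7.07% coefficient of variation) than the controls (16.7%). The log2 difference was 1.40 ± 0.11 (SE; adjusted p = 4.00e-06, same edgeR test).

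Myl3 (chromosome 9, 110741861 to 110769798), the essential chain of slow fibres, showed the opposite change. Controls 1 to 4 had 3149, 3429, 3722 and 3125 normalized CPM, and mutants 1 to 4 had 554.0, 934.5, 993.2 and 606.1. Every mutant was below every control, with mutants 1 and 4 lower than mutants 2 and 3. The mean fell from 3357 ± 280.3 to 772.0 ± 223.9 (SD, n = 4 each), a log2 difference of -2.12 ± 0.18 (SE; adjusted p = 7.36e-06, same edgeR test). Exons of Myl3 overlap those of Pth1r on the other strand over 95 bases, and 4.13% of its 31-base stretches occur in other genes.

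Myl1 (chromosome 1, 66924295 to 66945404), the essential chain of fast fibres, did not pass the threshold. Its levels were 3935, 4195, 4598 and 5086 normalized CPM in controls and 3743, 3659, 3904 and 4151 in mutants, so the genotypes overlapped. The log2 difference was -0.20 ± 0.09 (SE; adjusted p = 0.0823, same edgeR test), -0.14 without control 4, and 0.00 when libraries were scaled by their total alone. Without control 1 it was -0.27 (adjusted p = 0.0258, same edgeR test), and DESeq2 gave -0.21 (adjusted p = 0.0450, DESeq2 test). Both adjusted p were under 0.05, but both sizes were under the fold threshold. The count adds both protein forms made from this gene, which start at different promoters, and the pseudogene Mylf-ps holds 14.5% of its 31-base stretches.

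Myl6 (chromosome 10, 128490860 to 128494145), the chain of smooth muscle and non-muscle cells, was at 180.5 to 199.1 normalized CPM in controls and at 194.3 to 217.5 in mutants. These ranges overlapped, and the log2 difference of 0.10 ± 0.06 (SE; adjusted p = 0.196, same edgeR test) did not pass. With library size alone it was 0.31 (adjusted p = 0.00239, same test), when the median of all genes was also moved, to 0.22. Myl6 shares 11.4% of its 31-base stretches with Gm5526 and other gene models, which makes its count less certain than that of Mylpf, where no stretch is shared.

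**Figure D1:**
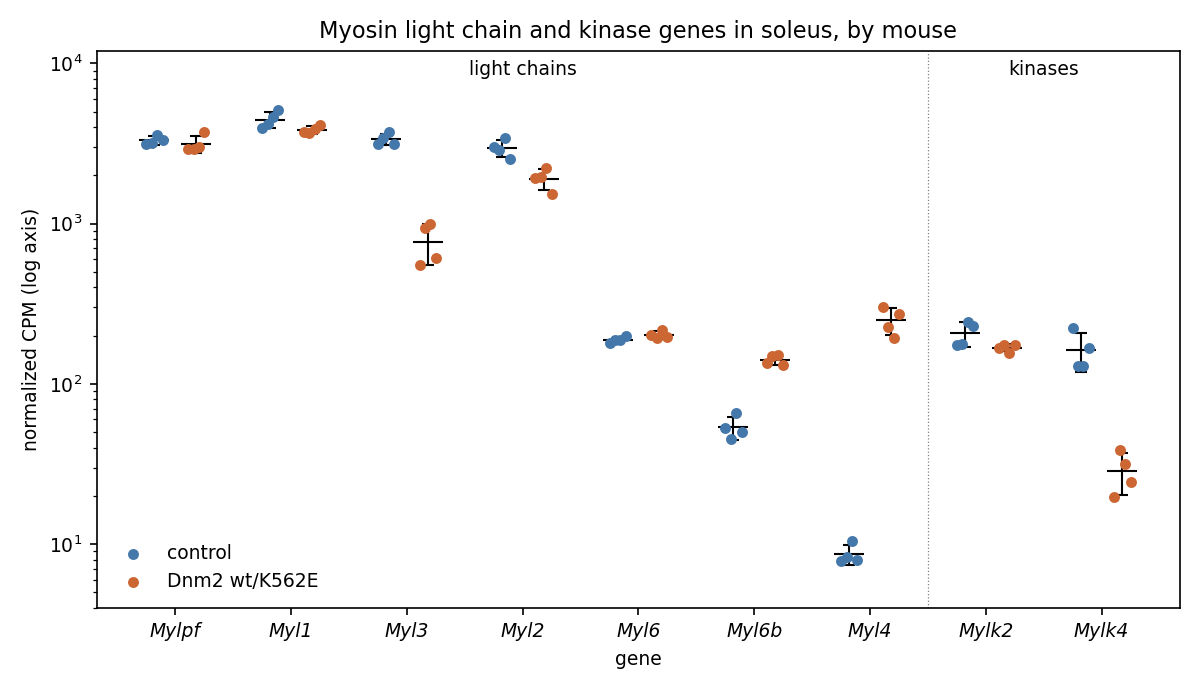
Normalized CPM of the 9 genes in each mouse on a log axis (points, in the order of mice 1 to 4), with the mean and SD over 4 mice in black. Myl4 and Myl6b were higher and Myl3, Myl2 and Mylk4 lower in all 4 Dnm2 wt/K562E mice than in all 4 controls, while the other 4 genes overlapped.

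The regulatory light chains differed from each other. Myl2 (chromosome 5, 122100951 to 122113472), the slow and ventricular chain, was at 3005, 2900, 3424 and 2547 normalized CPM in controls 1 to 4 and at 1932, 1944, 2217 and 1541 in mutants 1 to 4. The groups did not overlap, but the lowest control and the highest mutant were close. The log2 difference of -0.64 ± 0.12 (SE; adjusted p = 0.0013, edgeR quasi-likelihood test) lay near the fold threshold, which it missed without control 3 (-0.56), without mutant 4 (-0.55) and with library size alone (-0.42), although each adjusted p stayed under 0.05 in that test. Without control 4, the lowest control for this gene, it was -0.71.

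Mylpf (chromosome 7, 127208890 to 127214298), the fast regulatory chain, was at 3120, 3199, 3568 and 3330 normalized CPM in controls and at 2916, 2932, 3011 and 3742 in mutants. Mutant 4 was above every control and the other 3 mutants below every control. The log2 difference was -0.07 ± 0.09 (SE; adjusted p = 0.572, same edgeR test), which became -0.16 (adjusted p = 0.0916) without mutant 4 and 0.14 (adjusted p = 0.158) with library size alone, all from that test.

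The kinases also differed. Mylk4 (chromosome 13, 32700834 to 32783954) was at 223.9, 129.6, 129.6 and 166.6 normalized CPM in controls 1 to 4 and at 19.7, 38.6, 31.4 and 24.5 in mutants 1 to 4. The lowest control was far above the highest mutant, although the relative spread was wide in both genotypes (27.4% and 28.8% coefficient of variation). The log2 difference was -2.50 ± 0.23 (SE; adjusted p = 1.16e-05, same edgeR test). Its level per length fell from rank 1614 to rank 6570 among the 13955 genes.

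Mylk2 (chromosome 2, 152911352 to 152923068), the skeletal muscle kinase, was at 173.8, 177.4, 244.4 and 230.0 normalized CPM in controls and at 168.3, 174.1, 156.5 and 174.3 in mutants. Control 1 lay within the range of the mutants, control 2 just above it and controls 3 and 4 further above. The log2 difference was -0.29 ± 0.11 (SE), whose adjusted p of 0.0475 (same edgeR test) was under 0.05 but whose size was under the fold threshold. Without control 4 it was -0.25 (adjusted p = 0.109, same edgeR test). Mylk4 had 0.818 ± 0.327 counts per count of Mylk2 in controls and 0.170 ± 0.0491 in mutants (SD, n = 4 each), and the highest mutant (0.222) was below the lowest control (0.530).

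**Figure D2:**
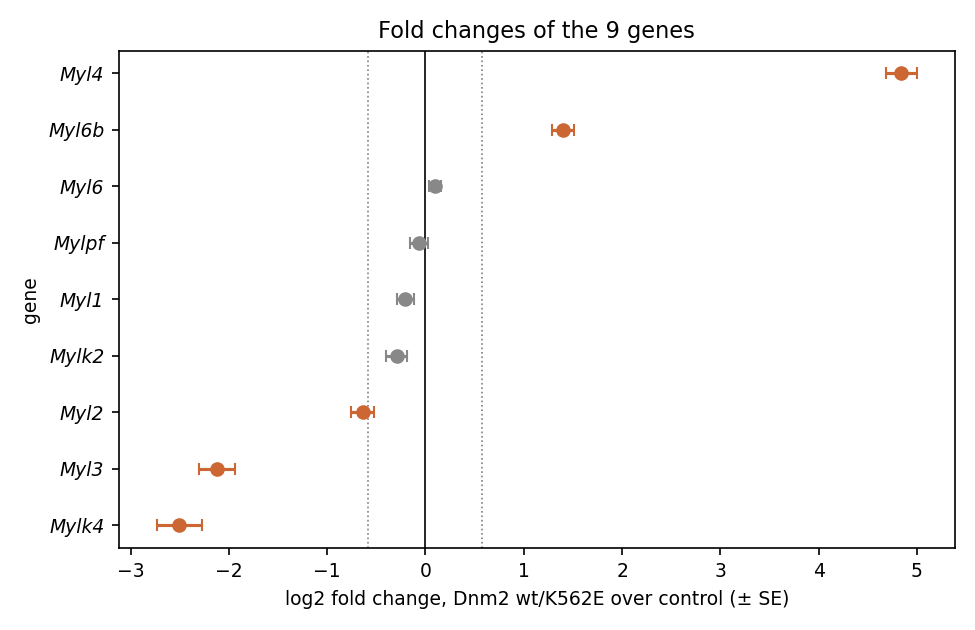
Log2 fold change of the 9 genes between Dnm2 wt/K562E and control soleus with its standard error (n = 4 mice per genotype). Genes called by both thresholds are in orange, the others in grey, and dotted lines mark a log2 fold change of 0.58 in either direction. The values ran from -2.50 for Mylk4 to 4.84 for Myl4.

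Levels were compared between genes per kilobase of exon, in normalized CPM per kb. In controls Mylpf was highest (3112 ± 184.6), followed by Myl1 (2147 ± 242.3), Myl3 (1642 ± 137.1) and Myl2 (1522 ± 185.1; SD, n = 4 each). The Myl3 and Myl2 values of single controls overlapped, so their order was not resolved. Far below came Mylk2 (69.9 ± 12.2), Myl6 (59.2 ± 2.42), Myl6b (29.0 ± 4.84) and Mylk4 (21.1 ± 5.79), of which Mylk2 and Myl6, and likewise Myl6b and Mylk4, overlapped between mice. Myl4 was last at 1.87 ± 0.266. In mutants Mylpf (2966 ± 373.6) and Myl1 (1863 ± 104.4) again came first, Myl2 (978.8 ± 142.6) was now above Myl3 (377.7 ± 109.5) in every mouse, and Myl6b (76.6 ± 5.41) was above Myl6 (63.5 ± 3.39) in every mouse. Myl4 (53.7 ± 10.3) overlapped with Myl6 and with Mylk2 (57.0 ± 2.82), and Mylk4 (3.72 ± 1.07) was last. Exon lengths here join all annotated transcripts, so a gene with long rare exons is set too low. Some of these orders depend on the division by length. Before it, Myl6 was above Myl6b in every mutant (194.3 to 217.5 against 131.0 to 150.9 normalized CPM). Myl1 was then above Mylpf in every mouse, with means of 4453 and 3305 in controls and 3864 and 3150 in mutants.

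The make-up of the light chain pool was followed as the share of each gene in the summed counts of the 7 light chain genes, which does not depend on the scaling of libraries. These shares are described without a test, because the genes were chosen with results of these data known and a share moves when any other gene moves. Myl3 made up 23.4, 24.6, 23.9 and 21.8% in controls 1 to 4 and 5.66, 9.31, 9.29 and 5.70% in mutants 1 to 4. Myl4 made up 0.0587, 0.0591, 0.0674 and 0.0558% in controls and 3.08, 2.26, 1.82 and 2.57% in mutants. All 4 mutants were below all controls for Myl3 and above all controls for Myl4.

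The fast chains made up larger shares in all 4 mutants than in all 4 controls. The Mylpf share was 23.1 ± 0.171% in controls, with all 4 between 22.9 and 23.2%, and 30.6 ± 3.13% in mutants (SD, n = 4 each). The Myl1 share was 31.1 ± 2.94% in controls and 37.6 ± 1.28% in mutants. The lowest mutant (36.4%) was close to control 4 (35.5%), which stood apart from the other controls (29.3 to 30.04%), and the difference of 6.49 percentage points was 7.96 without control 4. With counts divided by exon length the Myl1 share differed by 3.99 points and the genotypes overlapped.

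The slow regulatory chain Myl2 did not separate the genotypes by its share of all 7 chains, unlike Myl3. Its share was 20.7 ± 2.08% in controls and 18.6 ± 2.79% in mutants (SD, n = 4 each) and overlapped, with the lowest value of each genotype in control 4 (17.8%) and mutant 4 (14.5%). Within the regulatory chains alone, Myl2 made up 43.3 to 49.1% in controls and 29.2 to 42.4% in mutants, without overlap. Myl6b made up 0.373 ± 0.0448% in controls and 1.38 ± 0.106% in mutants, and Myl6 1.32 ± 0.0773% and 1.97 ± 0.107%, both without overlap. The level of Myl6 itself had not passed the test. The widest 95% Wilson interval of any single share was 0.317 percentage points, which covers counting error only. This error was not small beside the spread of every share. The interval of Myl4 in control 1 ran from 0.0520 to 0.0662%, against an SD of 0.0050 over controls. That of Mylpf in control 1 ran from 23.08 to 23.32%, against an SD of 0.171.

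**Figure D3:**
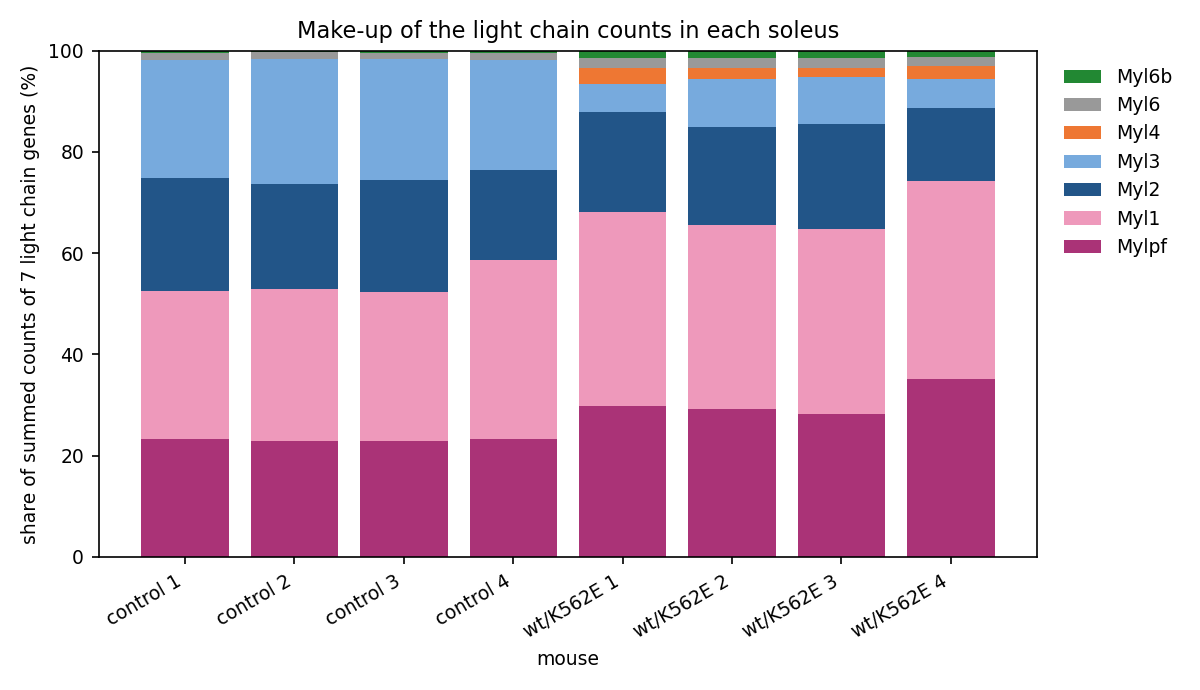
Share of each of the 7 light chain genes in their summed counts (stacked bars, percent, 1 bar per mouse). The Myl3 part was 21.8 to 24.6% in controls. In the mutants it was 5.66 to 9.31%, a Myl4 part of 1.82 to 3.08% can be seen, and the Mylpf and Myl1 parts were wider.

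The summed level of the 7 light chains was 14334 ± 906.3 normalized CPM in controls and 10288 ± 447.0 in mutants (SD, n = 4 each), and as a part of all counts it was 1.33 ± 0.0833% and 1.11 ± 0.0235%, without overlap on either scale. Essential chains gave 1.29 ± 0.109 counts per count of regulatory chains in controls and 1.03 ± 0.0216 in mutants, again without overlap. Per exon length, the same ratio was 0.838 ± 0.0569 and 0.618 ± 0.0318.

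The ratio of the slow essential to the slow regulatory chain also separated the genotypes. Myl3 had 1.14 ± 0.0829 counts per count of Myl2 in controls and 0.402 ± 0.0850 in mutants (SD, n = 4 each). Between the fibre types, Myl3 over Myl1 was 0.760 ± 0.0976 in controls and 0.201 ± 0.0623 in mutants, Myl2 over Mylpf was 0.898 ± 0.0927 and 0.618 ± 0.142, and none of these ratios overlapped between genotypes. For Myl3 over Myl1, control 4 (0.614) was apart from the other controls (0.800 to 0.818). Myl4 had 0.00257 ± 0.000177 counts per count of Myl3 in controls and 0.358 ± 0.166 in mutants, with 0.544 in mutant 1 and 0.196 in mutant 3 as the ends of the mutant range.

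Within the mutants, the mice with the lowest Myl3, 1 and 4, also had the highest Myl4 and the lowest Mylk4. Over all 8 mice, with the genotype mean of log2 CPM taken off, the deviations of Myl4 and Mylk4 had a Pearson r of -0.73 (Spearman's rho -0.90), those of Myl4 and Myl3 an r of -0.63 (rho -0.62) and those of Myl3 and Myl2 an r of 0.63 (rho 0.71). These are descriptions over 8 libraries, whose points share depth and scaling within a library. Among the 36 pairs of the 9 genes the largest positive r was 0.73, for Myl1 and Mylk2 (rho 0.83). Some pairs varied together although their genotype changes were opposite. Myl6b, which rose, had an r of 0.69 (rho 0.88) with Myl2 and of 0.52 (rho 0.62) with Myl3, which both fell.

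**Figure D4:**
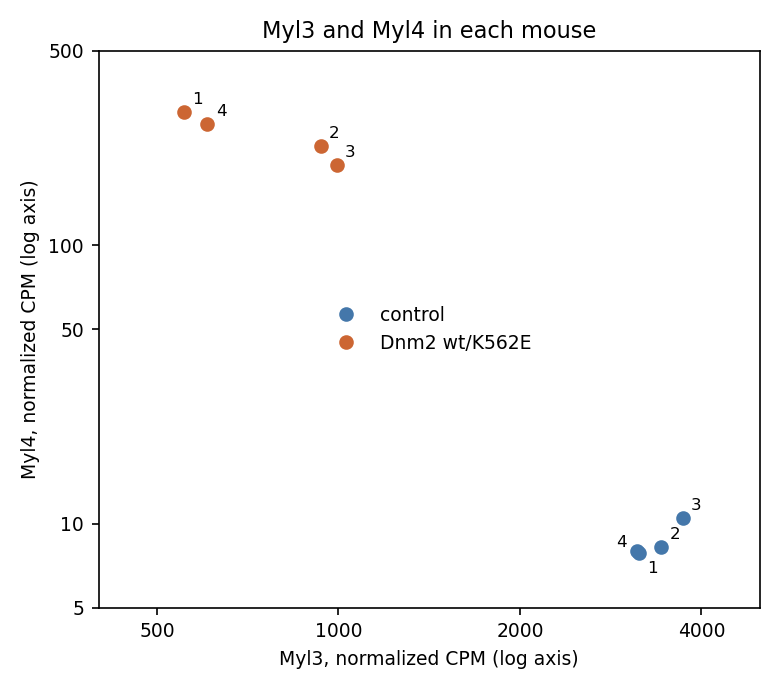
Myl4 against Myl3 in each mouse, both as normalized CPM on log axes, with the mouse number beside each point. Controls lie at 3125 to 3722 for Myl3 and 7.89 to 10.5 for Myl4, and Dnm2 wt/K562E mice at 554.0 to 993.2 and 194.4 to 301.4.

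By the same likeness of deviations over 8 mice, the tested genes outside this group nearest to Myl4 were Dll1 (r = 0.992), Ltn1 (0.985) and P2rx6 (0.977), those nearest to Myl2 were Ankrd28 (0.986), Ngef (0.962) and Rpl9-ps6 (0.961), and those nearest to Myl1 were Wdr4 (0.995), March5 (0.976) and 1190002N15Rik (0.975). An r over 0.9 was reached by 46, 28 and 27 tested genes for Myl4, Myl2 and Myl1, so these names carry little weight with 8 libraries. Of the 9 named genes, Ngef was called higher and Dll1, a ligand of Notch receptors, lower, whereas the other 7 were not called.

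Other light chains and kinases were counted as a list of 7 genes, of which 6 were tested and the atrial regulatory chain Myl7 was not. Of these 6, 1 was higher and 1 lower, with a median log2 fold change of 0.06. The cardiac kinase Mylk3 rose from 2.24 ± 0.624 to 8.67 ± 1.36 normalized CPM (SD, n = 4 each; log2 fold change 1.96, adjusted p = 2.65e-05, edgeR quasi-likelihood test). The smooth muscle kinase Mylk fell from 80.1 ± 9.98 to 48.2 ± 4.29 (log2 fold change -0.73, adjusted p = 1.51e-04, same test). Mylk3 and Mylk4 thus changed in opposite directions.

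For a list of partners of light chain phosphorylation, which includes subunits of myosin phosphatase and the kinases Rock1, Rock2 and Dapk3, 0 of 10 tested genes were called in either direction. With an adjusted p alone, 6 of them were under 0.05 (edgeR quasi-likelihood test), against 43.8% of all tested genes.

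Of the 8 sarcomeric heavy chains, 1 was higher and 2 were lower, or 3 lower without control 4. The embryonic Myh3 was at 23.1 ± 2.66 and 330.3 ± 57.1 normalized CPM, the neonatal Myh8 at 22.7 ± 2.94 and 24.1 ± 3.51, the IIA chain Myh2 at 9753 ± 610.7 and 6343 ± 496.3 and the IIB chain Myh4 at 1024 ± 1411 and 41.4 ± 8.29 (controls and mutants, SD, n = 4 each), where the log2 fold change of Myh4 was -4.63 with control 4 and -2.96 without it. Myh8 (log2 fold change 0.09), the slow Myh7 (-0.52), the IIX chain Myh1 (-0.13), the cardiac Myh6 (-0.27) and Myh7b (-0.56) were not called, of which Myh7b passed without control 4 (-0.63, adjusted p = 0.0172, edgeR quasi-likelihood test). Of 4 heavy chains of smooth muscle and non-muscle cells, the non-muscle Myh14 (0.97) was higher and the smooth muscle Myh11 (-0.63) lower.

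The light chains can be set beside other genes of the same fibres. Of 7 slow fibre genes, 0 were higher and 2 were lower, the troponin Tnnc1 (log2 fold change -0.69) and the Z-disc protein Myoz2 (-0.68). The list median was -0.48, while the light chains of slow fibres were at -2.12 (Myl3), -0.64 (Myl2) and 1.40 (Myl6b). Of 7 fast fibre genes, 7 were lower, with a median of -1.19, and the count was the same without control 4 (an alternative chosen after seeing the data), with a median of -0.99. They included the fast troponins Tnnt3 (-0.69), Tnni2 (-0.70) and Tnnc2 (-0.69), the calcium pump Atp2a1 (-1.19), the Z-disc protein Actn3 (-1.43), the calcium buffer Pvalb (-3.34) and the myosin-binding protein Mybpc2 (-3.36), whereas the fast light chains Mylpf and Myl1 were at -0.07 and -0.20. Without control 4, Actn3 was at -0.99, Pvalb at -2.93, Mybpc2 at -2.94, Mylpf at -0.07 and Myl1 at -0.14. The median over all tested genes was 0.01. Whether the light chains differ from these lists was not tested.

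Of 9 genes of developing muscle, 3 were higher and 2 lower. Higher were the myogenic factor Myog (log2 fold change 3.10), the embryonic and cardiac troponin Tnnt2 (2.44) and the adhesion molecule Ncam1 (1.74). Lower were Pax7 (-2.03) and Myf5 (-1.85), which mark satellite cells.

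**Figure D5:**
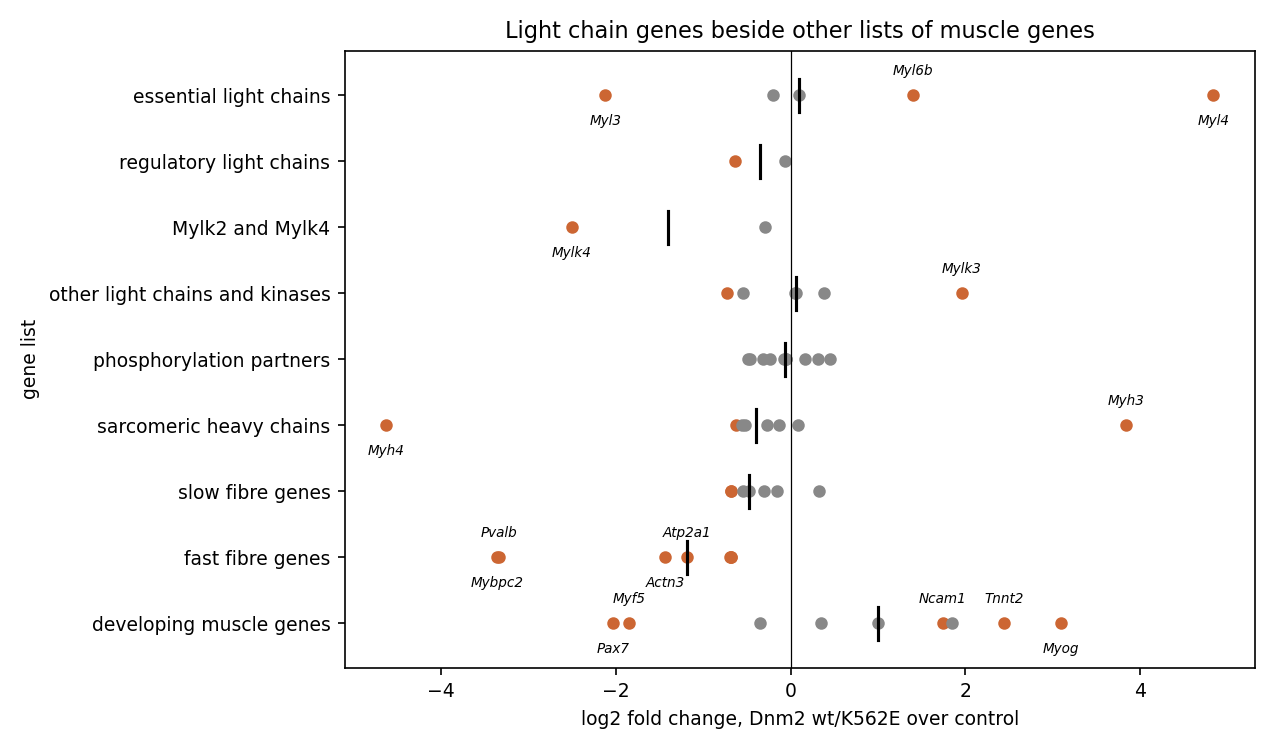
Log2 fold changes (Dnm2 wt/K562E over control) of the tested genes of 9 lists, with called genes in orange, others in grey, the list median as a black bar, and names for called genes beyond a log2 fold change of 1.1. The essential light chains spread from -2.12 to 4.84 around a median of 0.10, while the fast fibre genes all lay below 0.

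Markers of other cells moved as well. Of 6 smooth muscle genes 4 were lower (Acta2, Tagln, Myh11 and Cnn1, 5 genes without control 4), and their summed level was 527.1 to 672.4 normalized CPM in controls and 356.6 to 389.4 in mutants. All 4 fibroblast genes (Pdgfra, Col1a1, Col3a1 and Dcn) and all 5 macrophage genes (Cd68, Adgre1, Csf1r, Ptprc and Lyz2) were higher, with sums of 1757 to 2671 and 125.4 to 224.8 in controls and 3735 to 4847 and 306.8 to 495.2 in mutants. Of 4 endothelial genes Kdr was lower, with sums of 810.4 to 849.9 and 576.3 to 661.6. Of 4 Schwann cell genes 0 were called (154.5 to 174.0 and 128.9 to 160.0). These cells express Myl6 and, in part, Mylk, and the part of their numbers in those values was not tested. The heart list held only Myl7, Nppa and Nppb, which were at or near 0. Other genes named as cardiac above, such as Myh6, Tnnt2 and Mylk3, were outside this list and were expressed in both genotypes. Myl7, the regulatory partner of Myl4 in the atrium, had 1 count in control 1 and 0 in the other 7 mice. Nppa had 0 counts in controls and at most 6 in a mutant. Nppb had 0 counts in controls and 14 to 21 in mutants, where 8152 or more counts fell on Myl4. Of this list only Nppb could be tested, and it was called higher. The source of the Myl4 RNA was not tested.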

How the data were processed

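The authors trimmed the reads with Trimmomatic 0.33, aligned them with STAR 2.5.1b to GRCm38 with Ensembl gene models and deposited, for each mouse, raw counts per gene from featureCounts, without normalization. Multi-mapping reads were counted at the primary alignment, but only with a mapping quality of at least 10. How many of them met that quality is not given in the sources used here. Reads overlapping several genes were counted for each of them. Pseudogene copies can thus have removed reads from single counts or added to them, and overlapping genes can have added to them. The study describes poly A-enriched libraries and the labels a stranded total RNA kit, and use of the strand in counting is not given in the sources used here.

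Of 22880 identifiers, 22647 were matched to GENCODE M21. With edgeR 4.0.16 in R 4.3.3, filterByExpr (minimum count 10, minimum total 15) kept 14001 genes, which were scaled by TMM and tested by the quasi-likelihood F-test with Benjamini-Hochberg adjustment. Standard errors are those implied by the F statistic, and a prior count of 2 went into log2 CPM. The fit was also run on simulated counts with known changes. These had the same dispersion for every gene and no mouse set apart, so that run does not cover such features of the real data. Each mouse was counted as a replicate, because each library was 1 mouse and the genotype belongs to the mouse. Between mice of a genotype the chi-square per degree of freedom was 13.0 or more. Named were all 9 genes, the called genes of each list, the sarcomeric heavy chains and the 3 most alike genes of Myl2, Myl1 and Myl4. The genes and lists were chosen with earlier results of these data known. Tried as alternatives were the study's exact test in edgeR, DESeq2 1.42.0, other scalings and filters, replicate blocks, no fold threshold and leaving out each mouse in turn.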

Additional observations from a re-analysis of the deposited data

Results flagged for a closer look

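Among 52 sets of 4 mice checked, 4 held a mouse whose gap to the nearest other mouse exceeded the 95% critical value of Dixon's test, where chance alone gives about 1 in 20. Myl4 in control 3 was 10.5 normalized CPM against 7.89 to 8.26 in the other controls, and it remained far below every mutant. Mylpf in mutant 4 was 3742 normalized CPM against 2916 to 3011 in the other mutants. The Myl1 share in control 4 was 35.5% against 29.3 to 30.04%, and the ratio of Myl3 to Myl1 counts in control 4 was 0.614 against 0.800 to 0.818. In control 4 the type IIB heavy chain Myh4 was also high (3134 normalized CPM, against 163 to 426 in the other controls), and its part in these values was not tested.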

How the results depend on the processing

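The calls of Myl3, Myl4, Myl6b and Mylk4 kept their direction and side of the thresholds under all alternatives run. Leaving out each mouse in turn gave 1588 to 1970 genes higher and 1026 to 1208 lower, 2 members higher each time and 2 to 3 lower, with log2 fold changes of 4.73 to 4.95 for Myl4, -2.27 to -1.99 for Myl3 and -2.69 to -2.32 for Mylk4. Scaling by library size alone moved the median of all genes to 0.22 and the calls to 2865 higher and 564 lower genes, turned Myl1 to 0.00292 and Mylpf to 0.139, and left Myl2 at -0.42, under the fold threshold. Without the fold threshold 3103 genes were higher and 3036 lower, and Mylk2 was then called. The mice share numbers from 1 to 4, but these are different animals, and the deviations of same-numbered mice had correlations of -0.213 to 0.00949 by title numbers and -0.167 to 0.178 by description numbers. A replicate block by title number gave 1637 higher and 1036 lower genes, one by description number 1739 and 1083, and no call among the 9 genes changed.

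The differences in share (mutant minus control, percentage points of the pool) were 6.49 for Myl1, -15.9 for Myl3, 2.37 for Myl4, 0.648 for Myl6, 1.00 for Myl6b, -2.12 for Myl2 and 7.53 for Mylpf. With counts divided by exon length they were 3.99 for Myl1, where the genotypes then overlapped, -13.4 for Myl3, 0.823 for Myl4, 0.300 for Myl6, 0.864 for Myl6b and 9.85 for Mylpf. Within essential and regulatory chains taken separately they were 18.8 for Myl1, -27.0 for Myl3, 4.68 for Myl4, 1.52 for Myl6, 2.04 for Myl6b and -9.40 for Myl2, whose genotypes then did not overlap. Without single mice they ran from 5.89 to 7.96 for Myl1, -16.5 to -15.3 for Myl3, 2.15 to 2.57 for Myl4, 0.611 to 0.693 for Myl6, 0.967 to 1.05 for Myl6b, -3.11 to -0.757 for Myl2 (the last without mutant 4) and 6.00 to 8.34 for Mylpf. The number of mice per genotype (4), and no protein measurement, limit what these counts show.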
